A study of Mus musculus with 22 samples.

Results

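Fatty acid binding proteins (FABPs) were followed in the colon of mice with and without PPAR γ in the intestinal epithelium during experimental colitis. The genes are Fabp1, Fabp2, Fabp4, Fabp5 and Fabp6, taken by name, and they are 5 of the 18194 genes that the arrays measure with a probe set of a single gene. They were read by 10 probe sets, and the main value of a gene comes from its probe set of widest interquartile range over the 22 arrays. RNA came from homogenized colonic tissue, 1 array per sample. The mice compared were PPAR γ fl/fl; Villin Cre+ (VC+), in which Cre driven by the Villin promoter deletes PPAR γ in epithelial cells of the intestine, and PPAR γ fl/fl; Villin Cre- (VC-), which carry the same floxed alleles without Cre and are labelled wild type. Both drank 2.5% dextran sodium sulfate (DSS), which injures the colonic epithelium, for 0, 2 or 7 days. Their background is taken as mixed FVB/C57BL/6. The paper also studied C57BL/6 mice, and its account of the arrays does not name the background. There were 3 arrays of VC+ mice at day 0, 5 at day 2 and 4 at day 7, and 3, 3 and 4 of VC- mice. The deletion is limited to the epithelium, so other cells of the homogenate kept PPAR γ in VC+ mice. Ages were not in the labels, and the labels do not say that each array is a separate mouse, so p-values measure the spread between these samples.

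FABPs are small cytosolic proteins that carry long-chain fatty acids and other lipids from the membrane to enzymes, organelles and nuclear receptors. Fabp1 (liver type) and Fabp2 (intestinal type) are made by absorptive enterocytes, Fabp6 (ileal type) carries bile acids in enterocytes of the ileum, Fabp4 is the form of adipocytes, macrophages and capillary endothelium, and Fabp5 (epidermal type) is made by many cell types. PPAR γ is a nuclear receptor for fatty acids that binds DNA with RXR at direct repeats of a short half-site spaced by a single base (DR1). Fabp6 is a known target of the bile acid receptor FXR, the product of Nr1h4, which binds an inverted repeat spaced by a single base (IR1).

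The sequences before the starts of Fabp1, Fabp2 and Fabp6 are shown because both receptors are part of the comparison, PPAR γ as the deleted gene and FXR as a gene measured beside Fabp6. They are the 250 bases upstream of each gene start in RefSeq (build GRCm38.p6), written on the strand of the gene, with the motif match in capitals.
Fabp1, chr6:71199629-71199878, + strand: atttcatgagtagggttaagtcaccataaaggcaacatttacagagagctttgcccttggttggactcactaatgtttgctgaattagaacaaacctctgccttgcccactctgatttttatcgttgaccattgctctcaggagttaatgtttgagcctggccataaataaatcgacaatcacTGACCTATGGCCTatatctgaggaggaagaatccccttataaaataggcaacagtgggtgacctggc
Fabp2, chr3:122894822-122895071, + strand: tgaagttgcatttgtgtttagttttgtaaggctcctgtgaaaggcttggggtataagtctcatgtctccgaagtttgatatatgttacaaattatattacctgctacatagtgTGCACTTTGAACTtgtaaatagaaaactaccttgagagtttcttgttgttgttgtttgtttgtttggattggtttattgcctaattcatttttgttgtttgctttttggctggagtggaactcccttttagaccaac
Fabp6, chr11:43601563-43601812, - strand: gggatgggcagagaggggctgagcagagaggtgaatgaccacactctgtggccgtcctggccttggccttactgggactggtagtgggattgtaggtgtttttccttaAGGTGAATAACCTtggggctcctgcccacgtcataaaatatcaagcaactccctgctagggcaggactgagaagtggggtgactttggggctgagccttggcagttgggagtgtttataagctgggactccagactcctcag
The DR1 pattern searched was the half-site AGNNCA, any base, and AGNNCA again, on both strands. It matched the opposite strand 67 to 55 bases upstream of Fabp1 (TGACCTATGGCCT) and 137 to 125 bases upstream of Fabp2 (TGCACTTTGAACT), and 2.33% of 32851 upstream windows of the same length held a match. The IR1 pattern, AGGTNA, any base and TNACCT, matched the printed strand 142 to 130 bases upstream of Fabp6 (AGGTGAATAACCT), and 0.0183% of the windows, 6 in number, held it. Both patterns were written with these genes in mind, and a match describes letters and not binding. Fabp4 (chr3:10204342-10208616) and Fabp5 (chr3:10012585-10016610) lie on the same chromosome as Fabp2 (chr3:122895072-122899506), while Fabp1 is at chr6:71199879-71205034 and Fabp6 at chr11:43596040-43601562 in that build.

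The deposited values were log2 signals after GC-RMA, which corrects the background and normalizes the arrays together, so a difference of 1 is a doubling of signal, and levels of different genes were not compared. Array medians lay between 3.41 and 3.55. Pparg itself was 8.50 to 8.83 in VC+ and 9.58 to 9.63 in VC- mice at day 0, 6.87 to 9.54 in VC+ and 9.87 to 10.96 in VC- mice at day 2, and 6.26 to 10.35 in VC+ and 7.39 to 9.82 in VC- mice at day 7. VC+ and VC- arrays thus did not overlap at days 0 and 2 and overlapped at day 7, and none of the 3 differences passed limma's test (adjusted p = 0.934 at day 0 and 0.242 at day 2). Prss2, a trypsinogen of the pancreas, was high (11.20 to 14.74) on VC+ day 7 replicate 4, VC- day 0 replicate 3 and VC- day 7 replicate 2. VC- day 7 replicate 2 also stood apart in Vil1, an actin-binding protein of the epithelial brush border (8.46, against 11.88 to 12.85 on the other arrays). Hoxb13, which marks the distal end of the gut, was between 2.86 and 3.81 on 12 arrays and between 6.88 and 12.42 on 10, and this split the groups unevenly, with all 3 VC- and 1 of 5 VC+ arrays low at day 2. Xist, the transcript of the inactive X chromosome in females, was high on 6 arrays, none at day 7. In RNA from whole tissue, fewer cells of a type and less RNA per cell cannot be told apart.

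All 5 members were among the 9097 more variable genes that were tested. A member counts as called when its adjusted p is under 0.05, and members were called in 2 of 12 comparisons. In VC+ against VC- mice at day 2 the called member was Fabp1, lower in VC+ mice, against 0.044% of all genes tested (all of them lower). No member was called by limma at day 0 (0.011% of genes called), at day 7 (0%) or over the mean of the 3 days (0%). At an unadjusted p under 0.05 there were 1, 0 and 2 members in these comparisons, against 6.6%, 14.2% and 10.8% of genes, and 1 at day 2, against 12.3%.

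In VC- mice at day 7 against day 2 the called members were Fabp1, lower, and Fabp5, higher, against 5.61% of genes (2.15% lower and 3.45% higher), and 3 members had an unadjusted p under 0.05 (29.2% of genes). In the other comparisons of days none was called by limma. In VC+ mice 0.055% of genes were called at day 2 against day 0, 1.75% at day 7 against day 0 and 7.58% at day 7 against day 2, and 1, 2 and 1 members had an unadjusted p under 0.05 (6.57%, 13.7% and 23.1% of genes). In VC- mice 0.011% were called at day 2 against day 0 and 10.6% at day 7 against day 0, with 1 and 2 members at an unadjusted p under 0.05 (4.58% and 32.4% of genes). The responses to DSS of the genotypes differed for no member by limma's test, with 2 members under an unadjusted p of 0.05 at day 2 (6.46% of genes, 0.022% called) and 0 at day 7 (8.48%, 0% called).

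**Figure D1:**
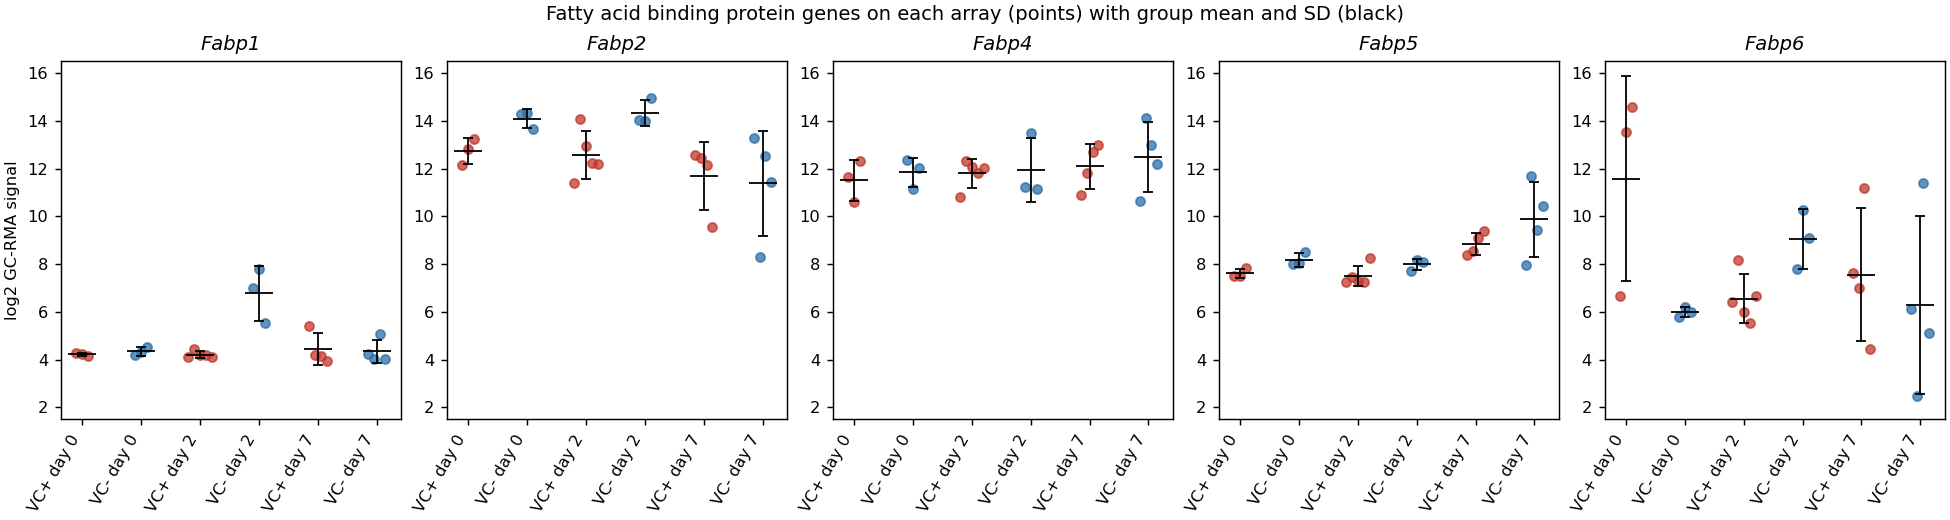
Log2 GC-RMA signal (vertical axis) of each FABP gene on each array (points, red for VC+ and blue for VC-) in the 6 groups, with the group mean and SD in black. Fabp1 is highest on the 3 VC- arrays of day 2, Fabp5 is highest at day 7, and Fabp6 spreads from 2.49 to 14.57.

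Fabp1 was lower in VC+ than in VC- mice at day 2 of DSS, and differed little between them before DSS and at day 7. At day 2 the log2 signals were 4.11, 4.43, 4.20, 4.21 and 4.10 on the 5 VC+ arrays, against 7.00, 7.81 and 5.52 on the 3 VC- arrays. Every VC- array lay above every VC+ array. The group means were 4.21 ± 0.13 (SD, n = 5) in VC+ mice and 6.78 ± 1.16 (SD, n = 3) in VC- mice, a log2 difference of -2.56 (standard error 0.39, 95% confidence interval -3.38 to -1.75, limma adjusted p = 0.00875), or 5.91-fold lower in VC+ mice. The standard error uses a spread shared by all 6 groups, not that of the groups compared alone. Of all genes tested, 4.02% had VC+ arrays all below VC- arrays at day 2. The VC+ signals lay not far above the array medians (3.41 to 3.55), so the fold is relative to a low signal.

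Before DSS the signal was 4.26, 4.23 and 4.16 in VC+ mice and 4.19, 4.30 and 4.54 in VC- mice, and these ranges overlap. The difference at day 0 was -0.13 (95% confidence interval -1.04 to 0.79). At day 7 the signals were 5.41, 4.21, 4.15 and 3.96 in VC+ mice, against 4.24, 4.01, 5.07 and 4.04 in VC- mice, so 1 array of each genotype stood above 5 and the others lay at the day 0 level. The difference at day 7 was 0.09 (95% confidence interval -0.70 to 0.88).

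Within VC+ mice, the day 2 mean of Fabp1 differed from day 0 by -0.01 (95% confidence interval -0.82 to 0.81). Within VC- mice, it was 2.43 higher at day 2 than at day 0 (standard error 0.44), with no overlap, as in 7.83% of genes, and narrowly missed the threshold (limma adjusted p = 0.0532). By day 7 it had fallen again by 2.43 relative to day 2 (standard error 0.41, adjusted p = 0.00341, and 0.382 in a fit of these groups alone). The day 7 arrays all lay below the day 2 arrays, as in 7.71% of genes tested. The change by day 2, VC+ minus VC-, differed by -2.44 (standard error 0.59, unadjusted p = 0.000535), which did not pass over all genes (limma adjusted p = 0.256), so a difference between the responses was not shown by that test.

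Hoxb13 differed between the groups of day 2 along with Fabp1. The single VC+ array of day 2 with low Hoxb13, replicate 2 (3.07), had a Fabp1 signal of 4.43, below the lowest VC- array of that day (5.52). On the other 8 arrays with low Hoxb13, at days 0 and 7, Fabp1 was 4.01 to 5.41. With Hoxb13 in the model the difference was -2.37 (standard error 0.48) and no longer passed (limma adjusted p = 0.436). Without VC- day 2 replicate 2, the array with the highest Fabp1, it was -2.05 (adjusted p = 0.146), and it passed without any other single array. In a fit of these 2 groups alone, the adjusted p was 0.202. Xist was high on VC- day 2 replicates 2 and 3 and low on replicate 1, which had a Fabp1 signal of 7.00. With a term for Xist, added after seeing the data, the difference was -2.60 (adjusted p = 0.0169).

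The signal of Fabp1 was most like those of Plppr5 (Pearson r = 0.89), Acaa1b (r = 0.81) and Dnase1l2 (r = 0.80) over the 22 arrays, given as a description without a test. Spearman's rho was lower, at 0.52, 0.62 and 0.54 in the same order. After removing group means r was 0.70, 0.42 and 0.75. Acaa1b, a peroxisomal thiolase of fatty acid oxidation, was 2.40, 4.86, 2.50, 2.44 and 2.43 on the VC+ arrays of day 2, against 8.02, 10.74 and 9.03 on the VC- arrays, a difference of -6.34 (standard error 1.06, adjusted p = 0.0217). The array orders were not the same, since VC- day 2 replicate 3 had the lowest Fabp1 and not the lowest Acaa1b of its group. At day 7 Acaa1b was high on VC+ replicates 1 and 2 (7.87 and 7.94), of which replicate 1 had the highest Fabp1 of its group (5.41) and replicate 2 did not (4.21). VC- day 7 replicate 3 had a Fabp1 signal of 5.07 with Acaa1b at 2.45. A second probe set of Fabp1 stayed between 2.84 and 3.35 on all arrays, below the array medians, and correlated with the main one at r = 0.87 over the arrays. Its difference between VC+ and VC- mice at day 2 was -0.27.

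**Figure D2:**
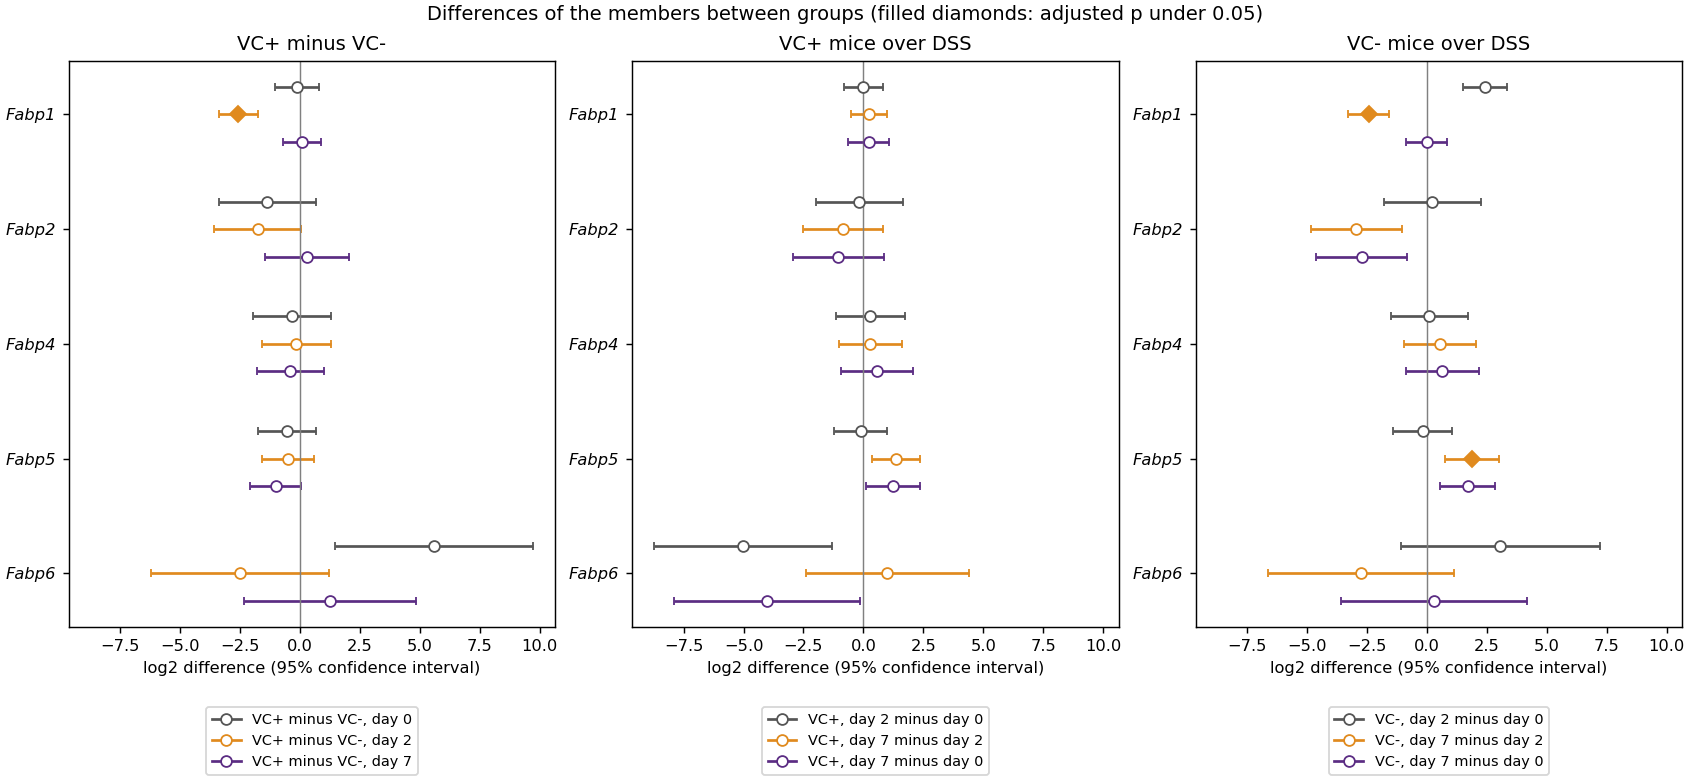
Log2 difference (horizontal axis) with its 95% confidence interval for each FABP gene between VC+ and VC- mice at each day, and between days within VC+ and within VC- mice. Filled diamonds mark Fabp1 in VC+ against VC- mice at day 2 and Fabp1 and Fabp5 in VC- mice at day 7 against day 2, the 3 differences with an adjusted p under 0.05, and the intervals of Fabp6 are the widest.

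The mean of Fabp2 was lower in VC+ than in VC- mice at days 0 and 2, and neither difference passed the test. At day 0 it was 12.14, 12.82 and 13.23 in VC+ mice, against 14.29, 14.34 and 13.64 in VC- mice. The 3 VC+ arrays lay below the 3 VC- arrays, as in 10.6% of all genes tested. The difference was -1.36 (standard error 0.97, 95% confidence interval -3.39 to 0.67, limma adjusted p = 0.877). At day 2 it was 11.38, 14.06, 12.92, 12.21 and 12.19 in VC+ mice, against 14.05, 13.97 and 14.95 in VC- mice. Here 4 of 5 VC+ arrays lay below all VC- arrays and replicate 2 did not, and the difference was -1.77 (standard error 0.87, 95% confidence interval -3.58 to 0.05, adjusted p = 0.414). That VC+ array was also the one of its group with low Hoxb13 and had its highest Pparg (9.54). With Hoxb13 in the model the day 2 difference was -0.73 (adjusted p = 1.00), a change of over 1.5 times.

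At day 7 Fabp2 was 12.58, 12.45, 12.15 and 9.56 in VC+ mice, against 13.26, 8.30, 12.51 and 11.44 in VC- mice. The groups overlapped and each held an array far below the others. These arrays, VC+ replicate 4 and VC- replicate 2, were the day 7 arrays with Prss2 signal. The difference was 0.31 (95% confidence interval -1.45 to 2.06), and it turned to -0.72 without VC- day 7 replicate 2 and to -0.75 with Vil1 in the model. In VC+ mice the day 7 signal differed from day 0 by -1.05 (95% confidence interval -2.94 to 0.85). Relative to day 2, the day 7 signal of VC- mice was lower by 2.94 (standard error 0.91, adjusted p = 0.0596), and relative to day 0 by 2.71 (standard error 0.91, adjusted p = 0.0582). Both missed the threshold, with every day 7 array below every earlier array, as in 7.71% and 12.3% of genes tested. Without VC- day 7 replicate 2 these differences were -1.92 and -1.69, and neither passed (adjusted p = 0.146 and 0.157). Both passed without VC- day 7 replicate 1 (-3.57 and -3.34, adjusted p = 0.0121 each), without VC+ day 7 replicate 4 (adjusted p = 0.0403 and 0.0418) and with array quality weights (adjusted p = 0.0235 and 0.00517).

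Fabp2 varied with Pparg across the arrays (Pearson r = 0.75, Spearman's rho = 0.70, and r = 0.82 after removing group means), a description over arrays that share groups, tissue pieces and 2 low day 7 arrays. The genes most like it over the 22 arrays were Thumpd3 (r = 0.92), Mrps31 of the mitochondrial ribosome (r = 0.92) and Suclg2, a subunit of mitochondrial succinyl-CoA ligase (r = 0.92). The correlation of Fabp2 with the mean of 11 macrophage and monocyte markers was negative (r = -0.76, Spearman's rho = -0.59). It was also negative with the mean of 10 capillary endothelium markers (r = -0.79, rho = -0.48), and positive with that of 12 colonocyte markers (r = 0.71, rho = 0.45). Of 11 colonocyte markers tested Slc26a3, a chloride exchanger, fell in VC- mice at day 7 against day 0 (-2.88, adjusted p = 0.0452), and no other was called in any comparison. Of 6 small intestine markers tested Lyz1 rose in that comparison (1.21, adjusted p = 0.0429), though only 2 of the 6 were above 0. The median of the 6 there was -0.29, against -0.09 over all genes tested. Ada rose in VC+ mice at day 7 against day 2 (1.63, adjusted p = 0.0413), where 4 of the 6 were above 0 (median 0.23, against 0.01). None of the 2 pancreas genes and 3 distal colon genes tested was called by limma.

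**Figure D3:**
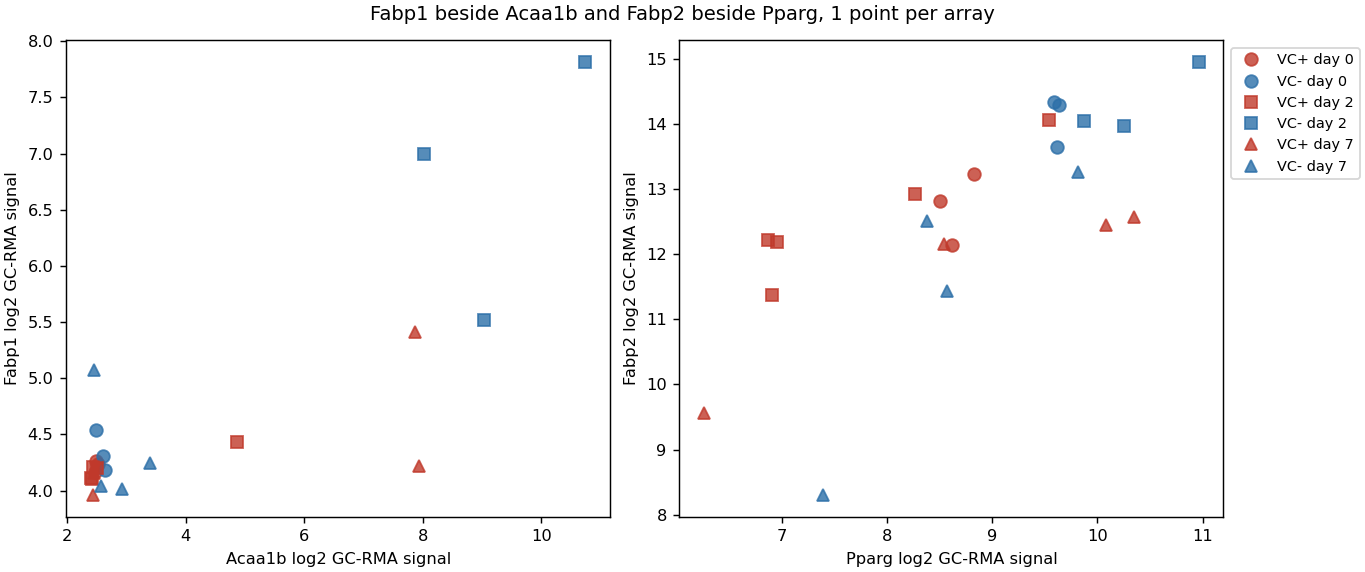
Log2 GC-RMA signal of Fabp1 against Acaa1b (left) and of Fabp2 against Pparg (right), 1 point per array, with color for genotype and shape for day. The 3 VC- arrays of day 2 lie at 5.52 to 7.81 for Fabp1 with Acaa1b at 8.02 or above, and the 2 lowest Fabp2 points, 8.30 and 9.56, are day 7 arrays.

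Fabp6 had the widest log2 range of the 5 genes, 2.49 to 14.57, and no difference between groups passed the test. At day 0 it was 6.64, 13.52 and 14.57 in VC+ mice, against 5.77, 6.19 and 5.99 in VC- mice. All VC+ arrays were above all VC- arrays, as in 9.66% of genes tested, but VC+ replicate 1 lay only just above them. The difference was 5.59 (standard error 1.98, 95% confidence interval 1.45 to 9.74, limma adjusted p = 0.663). That interval uses a spread shared by all 6 groups and does not measure the spread of the groups compared. At day 0 the SD of Fabp6 was 4.31 in VC+ mice and 0.21 in VC- mice (n = 3 each). At day 2 the order was the other way round. Its signals were 6.40, 8.19, 6.00, 5.51 and 6.67 in VC+ mice, against 7.79, 10.27 and 9.10 in VC- mice, with an overlap through VC+ replicate 2 (difference -2.50, standard error 1.77, adjusted p = 0.606). With Hoxb13 in the model this difference was 0.62. At day 7 they were 7.61, 6.98, 11.20 and 4.43 in VC+ mice, against 6.12, 2.49, 11.41 and 5.11 in VC- mice, and the groups overlapped over nearly their whole range.

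Over time, Fabp6 of VC+ mice was lower at day 2 than at day 0 by 5.02 (standard error 1.77, adjusted p = 0.583), with an overlap, and that of VC- mice was higher by 3.07 (standard error 1.98, adjusted p = 1.00), with no overlap, as in 7.83% of genes. The change by day 2, VC+ minus VC-, differed by -8.09 (standard error 2.66, unadjusted p = 0.00669, limma adjusted p = 0.481). With array quality weights, which give less weight to arrays far from their group, 5 differences of Fabp6 passed. Among them were that response (-9.72, adjusted p = 0.0150) and the genotype difference at day 0 (7.07, adjusted p = 0.00604). These weights were computed from the same arrays. At day 0 they were 0.72 for VC+ replicate 1, and 3.88 and 2.13 for VC+ replicates 2 and 3. Over the settings tried, up to 686 genes were called at day 0 between genotypes and up to 340 for the day 2 response. In the reported fit these numbers were 1 and 2.

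Hoxb13 and Fabp6 varied in part in opposite directions over the arrays (r = -0.50, and r = -0.59 after removing group means). On the 10 arrays with high Hoxb13 Fabp6 was 4.43 to 6.67 (median 5.99), and on the 12 with low Hoxb13 it was 2.49 to 14.57 (median 8.64). At day 0 the VC+ arrays with 13.52 and 14.57 had Hoxb13 at 3.09 and 2.88, while VC+ replicate 1 (12.42) and the VC- arrays (7.29 to 9.67) had high Hoxb13. Low Hoxb13 with little Fabp6 also occurred, on VC- day 7 replicates 1 and 2 (6.12 and 2.49). The 4 arrays with the highest Fabp6, from 11.20 upward, had the 4 lowest signals of Aqp8, a water channel of colonocytes (4.67 to 5.36), a gene chosen after its values were seen. The mean of the 12 colonocyte markers, Aqp8 among them, varied little with Fabp6 (r = 0.06, Spearman's rho = -0.24, and r = 0.20 after removing group means). At day 0 no VC- array had low Hoxb13, so genotype and low Hoxb13 cannot be told apart for the 2 highest arrays of that day.

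Genes that handle bile acids in the ileum varied with Fabp6. Over the 22 arrays its correlation was r = 0.82 with Slc10a2, the importer of bile acids at the brush border, and r = 0.89 with the mean of 8 ileal bile acid genes (r = 0.94 after removing group means). Slc10a2 was 4.02, 12.25 and 12.00 in VC+ mice at day 0, against 5.28, 3.93 and 6.35 in VC- mice. Slc51a, a subunit of the exporter at the basal side, was 3.71, 11.12 and 11.11 in VC+ mice at day 0, against 4.38, 4.53 and 3.71 in VC- mice. On both, VC+ replicates 2 and 3 were far above the 4 other arrays, as for Fabp6. Nr1h4 ranged from 7.72 to 11.63 over the arrays. None of the 5 tested genes of this list (Slc10a2, Slc51a, Slc51b, Nr1h4 and Abcc3) was called in any of the 12 comparisons. Between VC+ and VC- mice their median difference was 1.18 at day 0, against -0.01 over all genes tested. It was -1.88 against 0.00 at day 2 and 1.29 against 0.08 at day 7. All 5 were above 0 at days 0 and 7 and below 0 at day 2. Of all genes tested 49.2%, 49.7% and 56.3% were above 0 at days 0, 2 and 7. The 5 genes were read on the same arrays, so their signs are not independent.

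Of other genes of the small intestine, 4 of the 10 measured (Lct, Apoa4, Rbp2 and Slc2a5) did not exceed 2.87 on any array, while the highest signals of the other 6 were 8.04 for Ada, 8.29 for Cps1, 10.96 for Alpi, 12.46 for Slc5a1, 12.79 for Mep1a and 14.51 for Lyz1. The mean of the 10 correlated with Fabp6 (r = 0.82). In the list of ileal bile acid genes, the ileal hormone gene Fgf15, an FXR target, did not exceed 2.02. The genes most like Fabp6 were Naaladl1, a peptidase (r = 0.95), Abhd3 (r = 0.92) and Ccl25, a chemokine of the small intestine (r = 0.91).

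**Figure D4:**
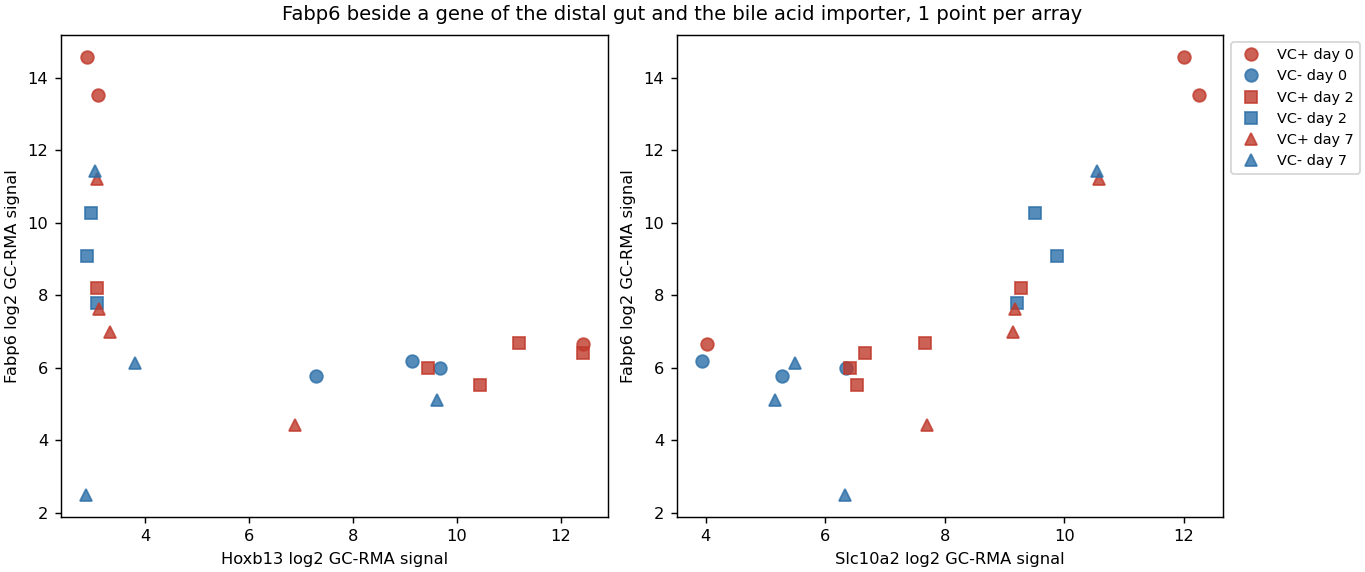
Log2 GC-RMA signal of Fabp6 against Hoxb13 (left) and against Slc10a2 (right), 1 point per array, with color for genotype and shape for day. All arrays with Fabp6 above 6.67 had Hoxb13 under 4, and the 4 arrays with the highest Fabp6 had the highest Slc10a2.

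No difference of Fabp4 with genotype or DSS passed the test. At day 0 it was 11.65, 10.60 and 12.30 in VC+ mice, against 12.36, 11.15 and 12.01 in VC- mice. At day 2 it was 10.79, 12.33, 12.05, 11.80 and 12.03 in VC+ mice, against 11.22, 13.48 and 11.13 in VC- mice. At day 7 it was 10.87, 11.83, 12.67 and 12.97 in VC+ mice, against 10.65, 14.13, 12.98 and 12.21 in VC- mice. The groups overlapped in every comparison. The differences between VC+ and VC- mice were -0.32 at day 0 (95% confidence interval -1.94 to 1.29), -0.14 at day 2 (-1.59 to 1.30) and -0.40 at day 7 (-1.80 to 0.99), so a change of 1 on the log2 scale in either direction lies inside the first 2 intervals. The highest adjusted p of the 10 comparisons of groups was 1.00 and the lowest 0.537, by limma.

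Among all genes tested, Fabp4 was most like Cd36 over the 22 arrays (r = 0.91, and r = 0.91 after removing group means), the fatty acid transporter of fat, macrophages and capillary endothelium, and next Fmnl2 (r = 0.82) and Evl (r = 0.81). Its correlation was r = 0.70 with the mean of capillary endothelium markers, r = 0.55 with that of macrophage markers and r = 0.31 with that of 9 fat tissue markers (r = 0.64 after removing group means). The array with the highest Fabp4, VC- day 7 replicate 2, had the highest Cd36 (10.46) and a low signal of Adipoq, the adipocyte hormone (3.14). VC- day 2 replicate 2, the next highest, had the highest Adipoq (10.43). Of 4 probe sets of Fabp4, 2 measured the same pattern (r = 0.99 with each other) and 2 stayed between 1.95 and 2.85.

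Fabp5 rose in VC- mice between days 2 and 7, and its day 7 signals were also the highest in VC+ mice. In VC+ mice Fabp5 was 7.51, 7.51 and 7.84 at day 0, 7.24, 7.47, 7.30, 7.26 and 8.24 at day 2, and 8.40, 8.55, 9.08 and 9.38 at day 7. All day 7 arrays lay above all earlier VC+ arrays, as in 9.61% of genes tested against day 0 and 7.87% against day 2. The differences were 1.23 against day 0 (standard error 0.54, adjusted p = 0.315) and 1.35 against day 2 (standard error 0.48, adjusted p = 0.0914), and neither passed. In VC- mice it was 7.98, 8.03 and 8.49 at day 0, 7.72, 8.15 and 8.09 at day 2, and 7.96, 11.68, 9.42 and 10.42 at day 7. At day 7, 3 of 4 VC- arrays lay above all earlier VC- arrays and replicate 1 did not. The day 7 mean was 9.87 ± 1.57 (SD, n = 4), against 7.99 ± 0.23 (SD, n = 3) at day 2, a rise of 1.88 (standard error 0.54, 95% confidence interval 0.74 to 3.02, limma adjusted p = 0.0492) or 3.69-fold. This call lay at the threshold. It was kept in 2 of the 22 fits that each left out 1 array (adjusted p 0.00133 to 0.153), and without VC- day 7 replicate 2 the difference was 1.28 (adjusted p = 0.117). Against day 0 the day 7 signal was higher by 1.70 (standard error 0.54, adjusted p = 0.0509), just short of the threshold, and by 2.07 with the second probe set of Fabp5, which passed (adjusted p = 0.0259). Against day 2 the second probe set gave a rise of 1.81, which did not pass.

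The VC+ mean at day 7 was 8.85 ± 0.46 (SD, n = 4), 1.02 below that of VC- mice (95% confidence interval -2.07 to 0.04, adjusted p = 0.357), and the groups overlapped. Without VC- day 7 replicate 1 this difference was -1.65 and passed (adjusted p = 0.0162), and without VC- day 7 replicate 2 it was -0.41 (adjusted p = 0.873). The day 7 responses differed by -0.47 (standard error 0.77, adjusted p = 0.842). At day 0 the VC+ arrays lay below the VC- arrays, with a difference of -0.55 (95% confidence interval -1.77 to 0.67, adjusted p = 0.970), and 10.6% of genes had the same order. With the second probe set of Fabp5 the groups overlapped at day 0, and the difference was -0.20.

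Markers of macrophages and monocytes were also higher at day 7. Of 11 tested, 5 passed the test as higher than at day 0 in VC+ mice and 8 in VC- mice, with medians of 1.78 and 1.83, against -0.02 and -0.09 over all genes tested. Cd68, a lysosomal protein of macrophages, was higher by 2.90 (adjusted p = 0.0404) at day 7 in VC+ mice and by 3.32 (adjusted p = 0.0101) in VC- mice. The mean of the list correlated with Fabp5 (r = 0.81, Spearman's rho = 0.57). VC- day 7 replicate 1, with the lowest Fabp5 of its group, had the lowest Cd68 of it (6.66), and replicate 2 the highest (10.78). The mean of capillary endothelium markers also varied with Fabp5 (r = 0.83, Spearman's rho = 0.37), and VC- day 7 replicate 2 was the highest in both. Of 8 capillary endothelium genes tested Tie1, a receptor kinase, rose in VC- mice at day 7, by 1.89 against day 0 and 1.81 against day 2 (adjusted p = 0.0242 and 0.0374). Of 11 squamous epithelium genes measured 2 were tested. Sprr1a, of the cornified envelope, rose by 2.74 in VC+ mice at day 7 against day 0 (adjusted p = 0.0462). The keratin gene Krt10 fell by 0.77 in VC- mice at day 7 against day 0 and by 0.64 in VC+ mice at day 7 against day 2 (adjusted p = 0.0316 and 0.0402). The part of these cells in the Fabp5 signal was not tested. The genes most like Fabp5 were Slit3 (r = 0.94), Slc10a6 (r = 0.94) and Sphk1, a kinase of sphingosine (r = 0.93).

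**Figure D5:**
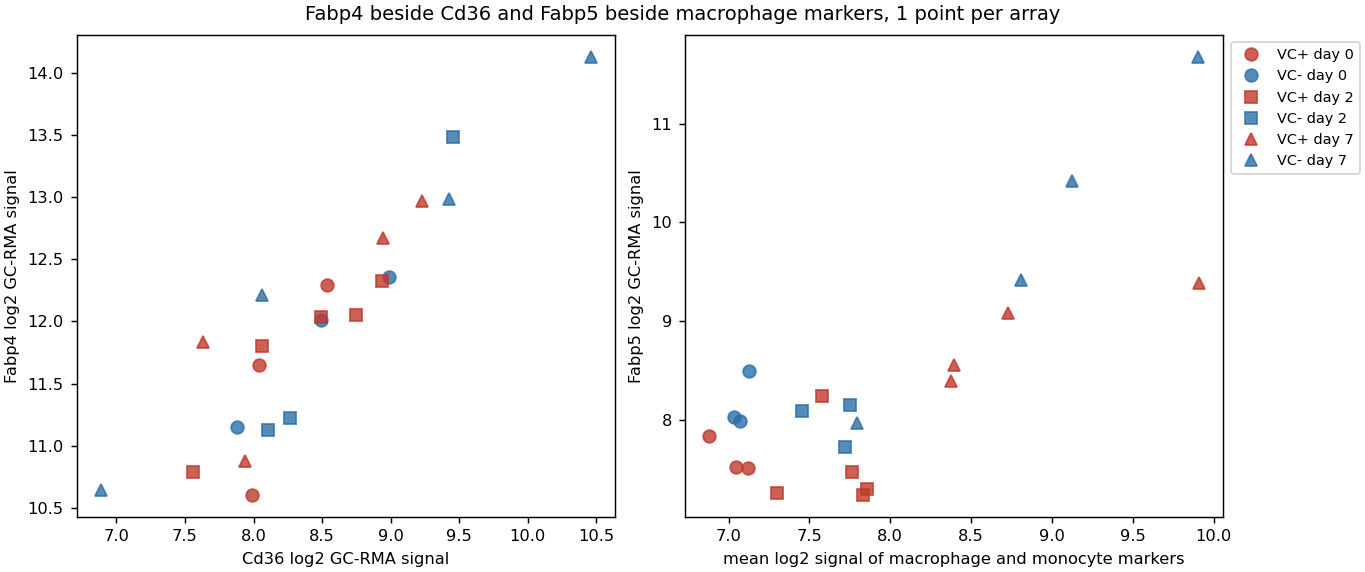
Log2 GC-RMA signal of Fabp4 against Cd36 (left) and of Fabp5 against the mean log2 signal of 11 macrophage and monocyte markers (right), 1 point per array, with color for genotype and shape for day. Fabp4 increases with Cd36 over the arrays, and Fabp5 exceeds 8.5 on day 7 arrays alone.

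The 5 members varied together only in part. Over the same 22 arrays the correlation was r = 0.64 for Fabp4 and Fabp5 (Spearman's rho = 0.51), r = -0.65 for Fabp2 and Fabp5 (rho = -0.30), r = 0.44 for Fabp1 and Fabp2 (rho = 0.70) and r = 0.42 for Fabp2 and Fabp6 (rho = 0.34). Of 10 other genes of the family, 9 had a probe set, 7 of them did not vary enough to be tested, and the 2 tested, Fabp3 (heart type) and Rbp7, a retinol carrier of endothelium, were called in none of the 12 comparisons. Fabp3 was 4.02 to 5.12 and Rbp7 5.77 to 8.37 over the arrays.

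Few genes of lipid handling beside the FABPs passed the test between genotypes, and few genes of any kind did. Of all genes tested, 0.011% were called between genotypes at day 0, 0.044% at day 2 and 0% at day 7. Of 11 tested genes of fatty acid uptake and activation none was called between VC+ and VC- mice at any day, and of 7 of triglyceride and chylomicron assembly none. Of 16 tested PPAR receptors and targets 1 was lower in VC+ mice at day 2, Acaa1b, with a list median of -0.63 against 0.00 over all genes and 14 of the 16 below 0. This list includes Pparg, the deleted gene itself (-2.65), and Hoxb13 differed between the same groups of day 2. In VC- mice, day 7 against day 2, the list had 3 genes that fell and none that rose (median -0.45, against -0.07 over all genes). They were Acaa1b (-6.42, adjusted p = 0.00389), Ehhadh, the peroxisomal bifunctional enzyme (-2.02, adjusted p = 0.0437), and Cpt1a, which admits fatty acids to mitochondria (-1.16, adjusted p = 0.0310), alongside the fall of Fabp1. Among uptake genes in the same comparison, the acyl-CoA synthetases Slc27a2 (-1.65, adjusted p = 0.0446) and Acsl3 (-1.72, adjusted p = 0.0212) fell and the lipoprotein receptor Scarb1 rose (1.57, adjusted p = 0.0302).

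Against day 0, Angptl4, an inhibitor of lipoprotein lipase and a PPAR target, rose in VC- mice by day 7 (3.18, adjusted p = 0.0317), as did Plin2, a lipid droplet coat (1.10, adjusted p = 0.0307). In VC+ mice Angptl4 was higher by 2.94 (adjusted p = 0.106) and Plin2 differed by -0.02. For neither gene did the day 7 responses of the genotypes differ by limma's test (adjusted p = 0.951 and 0.580). Of the 16 PPAR receptors and targets 8 were above 0 in VC- mice (median -0.08, against -0.09 over all genes). Of 7 fat tissue markers tested, Pck1 (-2.73, adjusted p = 0.0414) and Thrsp (-3.49, adjusted p = 0.0338) fell in VC- mice at day 7 against day 0, and none rose, while Fabp4 differed by 0.65 (95% confidence interval -0.86 to 2.16). In VC+ mice, day 7 against day 2, Acot1, an acyl-CoA thioesterase (2.04, adjusted p = 0.0244), Angptl4 (2.65, adjusted p = 0.0387) and Dgat1, which completes triglycerides (0.77, adjusted p = 0.0164), rose, while Fabp1 and Fabp2 differed by 0.22 and -0.87 (adjusted p = 0.767 and 0.567).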

How the data were processed

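RNA from homogenized colonic tissue was hybridised to Affymetrix mouse expression arrays, 22 in number. The deposited values are log2 signals that the authors obtained by GC-RMA, using affy under R 2.10.1. The number of arrays limits the precision. Probe sets were named by the platform annotation, and 34958 of 45101 carried 1 gene symbol. Each of 18194 genes was represented by its probe set of widest interquartile range, and the 50% of genes that varied most (9097) were tested. A model of 6 group means was fitted in limma (version 3.58.1, R version 4.3.3) with moderated variances. Two-sided p-values were adjusted over all genes tested in each of 12 comparisons (Benjamini-Hochberg), with a threshold of 0.05. The procedure was tested on simulated data.

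Genes named are the 5 members, the 3 genes most correlated with each, up to 4 called genes with the largest change of each of 13 lists and comparison, Pparg, and Prss2 and Hoxb13 as properties of the arrays. Vil1, Xist, Aqp8, Nr1h4, Slc10a2, Slc51a and other genes given with levels only were named beside the members after their values were seen. The members and lists were chosen with earlier results of these data known. Alternatives changed the probe set, the filter, the scaling, the arrays and the model. Promoter windows were searched in Python 3.11.15.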

Additional observations from a re-analysis of the deposited data

Results flagged for a closer look

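In groups of 4 or more arrays, the array farthest from the others was compared with the range of its group (Dixon's criterion) for each member, 15 groups in all. Chance marks about 1 in 20 such groups. Fabp2 on VC+ day 7 replicate 4 had a log2 signal of 9.56, against 12.15 to 12.58 on the 3 other arrays of its group, and this array also had Prss2 signal (11.20). Fabp5 on VC+ day 2 replicate 5 was 8.24, against 7.24 to 7.47 on the 4 other arrays.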

How the results depend on the processing

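Over 12 alternative settings, 684 of 720 differences of the 5 members kept their side of the threshold without a reversal, 13 lost a call, 21 gained one and 2 reversed. A change of sign was taken as a reversal where either value was called or lay at least 1 standard error from 0, and the remaining ones among 36 changes of sign were smaller. Fabp6 in VC+ against VC- mice at day 2 was 0.62 with Hoxb13 as a covariate (-2.50 without it), and Fabp2 at day 7 was -0.75 with Vil1 as a covariate, chosen after seeing the data, and -0.72 to 1.01 when 1 array was left out (-0.72 without VC- day 7 replicate 2, 0.31 with all). The causes were not tested. The call of Fabp1 at day 2 between genotypes was lost with only the groups compared (0 members called, adjusted p = 0.202), with a replicate block (0) and with Hoxb13 (0). In VC- mice at day 7 against day 2, 1 member in place of 2 was called with the probe set of highest mean, the mean of probe sets, no variance filter, the replicate block, without the 3 arrays with Prss2 signal, with Hoxb13, Xist or Vil1 in the model (Fabp5 lost each time), and 0 with only the groups compared, where Fabp1 had an adjusted p of 0.382. In VC- mice at day 7 against day 0, 1 member in place of 0 was called with the highest mean or mean of probe sets, with arrays shifted to one median, and with Hoxb13. In VC+ mice at day 7 against day 2, 1 was called with only the groups compared and with Vil1, and in VC- mice at day 2 against day 0, 1 with Vil1. With array quality weights 14 differences gained a call. The counts became 1 in VC+ against VC- mice at day 0 and at day 7, 2 over the 3 days, 1 and 2 in VC+ mice at days 2 and 7 against day 0, 2 in VC- mice at day 7 against day 0, 1 in VC+ mice at day 7 against day 2, 3 in VC- mice at day 7 against day 2, and 2 and 1 for the responses at days 2 and 7.

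Leaving out each array in turn gave 0 to 1 members called in VC+ against VC- mice at day 2, at day 7 (0 to 1), in VC+ mice at day 7 against day 2 (0 to 1), in VC- mice at day 2 against day 0 (0 to 1) and for the day 2 response (0 to 1), 0 to 2 in VC- mice at day 7 against day 0, and 1 to 3 in VC- mice at day 7 against day 2. Fabp1 stayed called in VC- mice at day 7 against day 2 in all 22 fits and at day 2 between genotypes in 21. Samples with the same replicate number were not paired by the labels, and 18 of 48 such pairs correlated above 0.1 after removing group means, against 36 of 152 other pairs. With the replicate number as a block, the Fabp1 difference at day 2 was -2.45 (adjusted p = 0.151) and that of Fabp5 1.77 (adjusted p = 0.0866), and no other member call changed.

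The numbers of genes called among all tested ranged over the settings from 0 to 686 in VC+ against VC- mice at day 0 (1 in the reported fit), 0 to 11 at day 2 (4), 0 to 1592 at day 7 (0) and 0 to 431 over the 3 days (0). In VC+ mice they were 0 to 1287 at day 2 against day 0 (5), 46 to 1509 at day 7 against day 0 (159) and 257 to 2645 at day 7 against day 2 (690). In VC- mice they were 0 to 8 (1), 3 to 2223 (963) and 0 to 1369 (510), and for the responses at days 2 and 7 0 to 340 (2) and 0 to 792 (0).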
